A study of Homo sapiens with 9 samples.

Results

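Antisense RNA genes are transcribed from the strand opposite to another gene and are usually named after that gene, with the suffix AS. The peaks described here are the binding sites of Yin Yang 1 (YY1) within 2000 bp of the transcription start site (TSS) of a gene whose symbol ends in AS, or in AS and a number. There were 456 such peaks at 426 genes, out of 15384 promoter peaks and 23002 peaks in all. They were picked by name and position, and their YY1 signal played no part in the choice. YY1 was profiled by chromatin immunoprecipitation and sequencing (ChIP-seq) in SK-N-MC, a human tumour line that the labels call neuroblastoma. The cells had been transfected with an EGFP fusion of huntingtin (Htt) that covers residues 1 to 550. A longer glutamine tract in this protein causes Huntington's disease. One group carried 23 glutamines (HttQ23, unexpanded) and the other 89 (HttQ89, expanded), with 3 libraries labelled as biological replicates in each. All 6 libraries shared the line, the transfection, the fusion tag and the antibody, and no untransfected cells were among them. Transfection was transient, so occupancy per transfected cell and the share of transfected cells cannot be told apart. Gene expression was not part of these data, so neither the levels of the antisense RNAs nor cell type markers could be checked.

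YY1 is a zinc finger protein that binds DNA at many promoters, often just downstream of a TSS, and can either activate or repress transcription. Many antisense RNAs start close to the TSS of a protein-coding gene and share one promoter with it, in a divergent, head to head arrangement. Others start inside the coding gene and run across its promoter. Some are known to affect the gene on the other strand, for example by recruiting repressive complexes, and several lie at loci mutated in repeat expansion disorders. ChIP-seq has no strand, so YY1 at a shared promoter cannot be given to either gene. The antisense name of a peak says only that the authors' annotation assigned it to the antisense TSS. A coding TSS can lie as near to the peak or nearer.

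Some peaks contained the YY1 motif AAGATGGCG. The matches shown are those of the 6 strongest peaks that had it, of HIF1A-AS1 and BDNF-AS, which are among the well-studied antisense RNAs, and of WEE2-AS1, the weakest peak with the motif. Each line gives 10 bases on either side of the motif, fewer at the edge of a peak, 5′ to 3′ on the motif's strand, with the motif in capitals. The sequences were read from the GRCh38 reference at the coordinates given after them.
ATE1-AS1: gccctcggtcAAGATGGCGcgggcggcgt
MYLK-AS1, first match: gccctcagccAAGATGGCGgctgccgtgg
MYLK-AS1, second match: gaactaatccAAGATGGCGccgaggttgt
NAPA-AS1: gccctctcccAAGATGGCGgcc
DLG1-AS1: actttccgccAAGATGGCGgcccccgagc
PPP1R14B-AS1: gcccaccggcAAGATGGCGcgaggctcgg
MKLN1-AS: cggtgctgacAAGATGGCGgctggcggag
HIF1A-AS1: cccccacgacAAGATGGCGacgtggacag
BDNF-AS: gttaagggagAAGATGGCGgcgctagggg
WEE2-AS1: ccctttaccgAAGATGGCGccaccacctg

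In GRCh38 these windows lay at chr10:121928110-121928138 (minus strand) for ATE1-AS1, chr3:123585153-123585181 and chr3:123585276-123585304 (minus) for MYLK-AS1, chr19:47484295-47484316 (plus) for NAPA-AS1, chr3:197298106-197298134 (plus) for DLG1-AS1 and chr11:64247512-64247540 (plus) for PPP1R14B-AS1. The remaining windows lay at chr7:131327887-131327915 (plus) for MKLN1-AS, chr14:61696013-61696041 (minus) for HIF1A-AS1, chr11:27506737-27506765 (minus) for BDNF-AS and chr7:141738573-141738601 (minus) for WEE2-AS1. In the GENCODE annotation, the windows of ATE1-AS1, MYLK-AS1 and NAPA-AS1 were exonic in the antisense gene. That of MKLN1-AS was exonic in the antisense gene and in MKLN1, and that of HIF1A-AS1 lay in an intron of HIF1A. The window of DLG1-AS1 fell in a UTR of DLG1, that of WEE2-AS1 in a UTR of SSBP1, and that of BDNF-AS across coding and untranslated sequence of LIN7C. The window of PPP1R14B-AS1 was intronic, and its peak held no annotated UTR, so 300 bases of that peak are given at chr11:64247369-64247668 on the plus strand, the strand of the antisense gene, again with the motif in capitals.
PPP1R14B-AS1, peak: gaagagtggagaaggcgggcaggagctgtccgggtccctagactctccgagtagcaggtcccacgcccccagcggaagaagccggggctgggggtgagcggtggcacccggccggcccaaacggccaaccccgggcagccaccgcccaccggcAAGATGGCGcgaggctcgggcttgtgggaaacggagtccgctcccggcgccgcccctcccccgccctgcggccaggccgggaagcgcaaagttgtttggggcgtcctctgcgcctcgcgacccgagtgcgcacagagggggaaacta

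The motif, searched on both strands, was present in 17 of the 456 peaks (3.73%), against 4.22% of all promoter peaks and 3.07% of all peaks. Its core ATGGCG, which the motif includes, was present in 115 (25.2%), against 27.0% of all promoter peaks and 32.7% of all peaks. These shares were close to those of other promoters. Of the 50 strongest antisense peaks 10 had the motif, and of the next 50 only 1 did. A match says that the letters are in the window, not that YY1 contacts them. HDAC4-AS1, the strongest peak without the core, held the first 7 letters of the motif, AAGATGG, shown as capitals. The window shown, with 10 bases on either side, lay at chr2:239401623-239401649 on the minus strand. It was in an exon of HDAC4 and an intron of HDAC4-AS1. These 7 letters were searched after that sequence had been seen. They were present in 45 antisense peaks (9.87%) and in 8.55% of all promoter peaks.
HDAC4-AS1: gccagtatccAAGATGGacgccgcggc

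The plot of the 20 strongest peaks shows where YY1 signal was highest. Values are reads per peak that the authors normalised to sequencing depth, and the values of a group are given in the order of replicates 1, 2 and 3. ATE1-AS1 (chr10:121927842-121928242), next to ATE1, the arginyltransferase that marks proteins for degradation, ranked first among the antisense peaks and 33rd of all peaks, with 1429, 866 and 1351 reads in the HttQ23 libraries against 992, 605 and 1407 in the HttQ89 libraries. The transcript carries the symbol ATE1OSP in GENCODE and is classed there as a pseudogene. NARF-AS2 (chr17:82458045-82458445), which overlaps the start of the prelamin A binding gene NARF, came next with 1330.0, 682 and 1200.4 reads in the HttQ23 libraries against 866, 529.7 and 1390.2 in the HttQ89 libraries. KMT2E-AS1 (chr7:105013965-105014365), divergent from the chromatin regulator KMT2E, had 1036, 564 and 1045 reads in the HttQ23 libraries against 751, 389 and 1079 in the HttQ89 libraries. HttQ89 replicate 2 was the lowest library at each of these peaks, and HttQ89 replicate 3 lay above at least 2 of the 3 HttQ23 libraries.

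**Figure D1:**
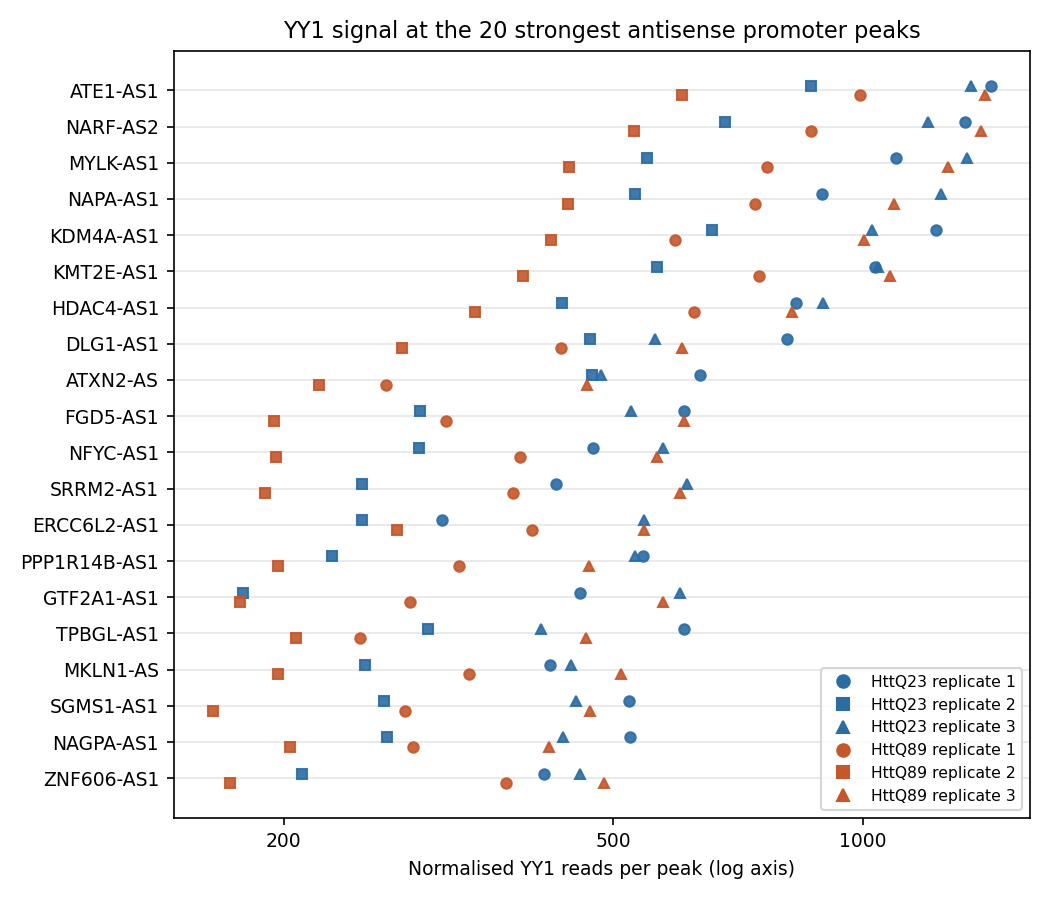
Normalised YY1 reads (log axis) at the 20 antisense promoter peaks with the highest mean, 1 row per peak, with a symbol for each library (blue HttQ23, orange HttQ89). At ATE1-AS1 the libraries ran from 605 in HttQ89 replicate 2 to 1429 in HttQ23 replicate 1, and the groups overlapped at all rows but ATXN2-AS.

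At 4 of the 10 strongest peaks the protein-coding TSS nearest to the peak belonged to a gene other than the one in the antisense name. MYLK-AS1 (chr3:123584955-123585355) is named after the myosin light chain kinase MYLK, whose nearest TSS was 30510 bp away, but its peak centre lay 102 bp from the TSS of HACD2, a dehydratase of fatty acid elongation. It had 2 motif matches, 123 bp apart, and 1098, 549 and 1336 reads in the HttQ23 libraries against 767, 442 and 1269.8 in the HttQ89 libraries. NAPA-AS1 (chr19:47483916-47484316), named after a SNARE recycling factor, lay 46 bp from the TSS of KPTN and had 894, 531 and 1242 reads in the HttQ23 libraries against 741, 441 and 1091 in the HttQ89 libraries. KDM4A-AS1 (chr1:43707363-43707763), named after a histone demethylase, lay 3 bp from the TSS of the sialyltransferase ST3GAL3 and had 1226, 657 and 1025 reads in the HttQ23 libraries against 594, 420.0 and 1005 in the HttQ89 libraries. FGD5-AS1 (chr3:14947839-14948239) lay 310 bp from the TSS of the nuclear receptor NR2C2 and had 609, 292 and 524 reads in the HttQ23 libraries against 314, 195 and 608 in the HttQ89 libraries. All 10 of the strongest peaks, and 47 of the first 50, had a protein-coding TSS within 1 kb of the peak centre.

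Another 3 of the 10 were divergent from the gene they are named after. HDAC4-AS1 (chr2:239401448-239401848) starts 49 bp from HDAC4, a class IIa histone deacetylase, and had 830.5, 433 and 895 reads in the HttQ23 libraries against 626, 340.0 and 823 in the HttQ89 libraries. DLG1-AS1 (chr3:197297856-197298256) starts 137 bp from DLG1, a scaffold protein of synapses and cell junctions, and had 811, 468 and 561 reads in the HttQ23 libraries against 432, 278 and 605 in the HttQ89 libraries. ATXN2-AS (chr12:111599209-111599609) starts 148 bp from ATXN2, which encodes the RNA-binding protein ataxin-2 and carries the polyglutamine tract expanded in spinocerebellar ataxia type 2. Its values were 636, 472 and 483 reads in the HttQ23 libraries against 266, 220.4 and 465 in the HttQ89 libraries, and it was the only one of the 20 strongest peaks whose groups did not overlap.

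Over all 456 peaks, the mean of the 6 libraries had a median of 65.7 and ran from 3.26 to 1108. The median was 61.1 over the promoter peaks of other genes and 33.2 over all peaks. Antisense promoters held 20 of the 500 strongest peaks. Within HttQ23 the coefficient of variation of a peak above 0 in all libraries had a median of 31.3%, and within HttQ89 of 54.6%, against 31.3% and 56.1% at other promoters. The peaks lay on 23 chromosomes, with 49 on chromosome 1. GC content under the peaks had a median of 70.4%, against 71.3% at other promoters.

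Most peaks sat on the antisense TSS itself. The peak covered the TSS at 345 (75.7%), against 72.7% at other promoters, while 53 lay upstream and 58 downstream. Peaks on the TSS had a median level of 76.9, those downstream 31.1 and those upstream 24.0. Among peaks near the limit of 2000 bp, MNX1-AS2, CCDC86-AS1 and LMF1-AS1, just inside it at 1946, 1959 and 1969 bp, had means of 37.0, 16.4 and 12.4. Just outside it, peaks of HM13-AS1, NCKAP5-AS2 and GRM5-AS1, at 2064, 2085 and 2131 bp, had means of 10.5, 11.3 and 9.85.

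The arrangement of the gene pair was described from GENCODE, by the distance and strand of the nearest TSS of the gene in the name (the partner). Head to head pairs, in which both genes start within 1 kb and run apart, held 143 peaks with a median level of 89.9. Pairs whose first parts overlap held 115 peaks (median 71.7), and antisense genes starting inside the partner held 62 (median 29.9). A further 123 peaks were apart from the partner (median 47.8), and 13 had no partner by that name. Of the 123, 67 had another coding TSS within 1 kb and a median of 72.6, against 27.6 for those without. In all, 330 peaks (72.4%) had a protein-coding TSS within 1 kb of the centre and a median of 82.7, and the 126 without one had a median of 25.7. All 17 peaks with the motif were among the 330. YY1 levels at antisense promoters were thus lower where no coding gene started nearby, a difference in medians that was not tested. The peak covered the antisense TSS at 286 of the 330 (86.7%) and at 59 of the 126 (46.8%). Position, which also went with the level, was not held equal in this comparison.

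**Figure D2:**
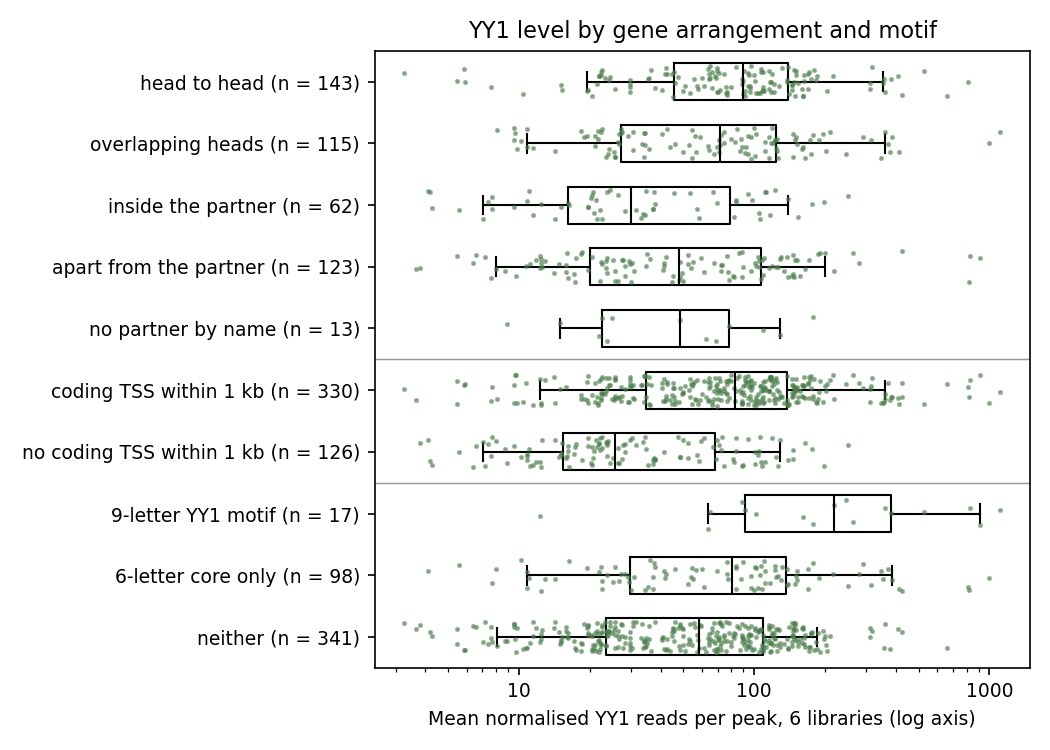
Mean normalised YY1 reads over 6 libraries (log axis) for the antisense promoter peaks, split by arrangement with the partner gene, by a coding TSS within 1 kb and by motif. Each point is a peak, boxes give the quartiles and the median, and whiskers the 5th to 95th percentiles, with medians of 89.9 for head to head pairs, 25.7 without a coding TSS and 217 with the motif.

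Levels also differed with the motif, again as medians without a test. Peaks with AAGATGGCG had a median of 217, those with only the core ATGGCG 80.7, and those with neither 58.3. Over all promoter peaks the median was also higher with the motif, at 193, than without the core, at 55.6. Peaks with only the core were not set apart there. The 18 matches in the 17 peaks lay a median of 69 bp from the peak centre, against 61 bp for the 655 matches at other promoters. Relative to the nearest coding TSS, 11 of 18 lay downstream, 8 of them within 100 bp, and 11 were on the strand of the coding gene. Relative to the antisense TSS, 11 lay downstream, and 7 were on the strand of the antisense gene. Peaks with the motif spanned from 12.3 to 1108. HIF1A-AS1, at the start of the hypoxia factor gene HIF1A, had 272, 194 and 312 reads in the HttQ23 libraries against 145, 198 and 360.2 in the HttQ89 libraries. WEE2-AS1, whose peak lay 56 bp from the TSS of SSBP1, a mitochondrial DNA-binding protein, held the same letters and had 0, 6.37 and 22.8 reads in the HttQ23 libraries against 9.27, 10.9 and 24.4 in the HttQ89 libraries.

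Each peak was assigned to 1 TSS, so a partner could have a promoter peak of its own. This was the case for 171 antisense peaks (159 genes). Where a partner had several promoter peaks, its strongest was taken, however far it lay from the antisense peak. This choice favours the partner in the count that follows. The antisense peak was the stronger of the pair in 78 and the partner's in 93, and 25 pairs lay within 2 kb of each other. The median distance between the peaks of a pair was 25159 bp, so most pairs were not neighbouring promoters. Some partner peaks, such as that of ZNF503, entered several pairs. At the HDAC4 locus the peak assigned to HDAC4-AS1, at the start that both genes share, averaged 658. Another peak, 1309 bp away and assigned to HDAC4, averaged 50.8. At MAPT, the gene of the microtubule protein tau, the order by assigned name was the other way. The means were 49.9 for the MAPT-AS1 peak and 141 for the MAPT peak. At ATXN1, the gene of ataxin-1, which is expanded in spinocerebellar ataxia type 1, the means were 144 for ATXN1-AS1 and 109 for ATXN1. These means compare peaks by assigned name, and a peak at a shared promoter cannot be given to either gene. At SPEN, the gene of a transcriptional corepressor, the antisense peak averaged 10.8 and the partner's peak, 14520 bp away, 821. Across the 171 pairs, log2 levels of the antisense and the partner peak had a Pearson r of −0.07, given as a description over pairs that share the 6 libraries.

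The comparison between groups asked whether the longer glutamine tract went with more or less YY1 at antisense promoters. The libraries were unequal before any peak was compared. Recovered reads in peaks ranged from 927910 to 2344649, and the antisense peaks took between 2.66% and 2.96% of the normalised total in each library. In HttQ23, 24, 17 and 6 antisense peaks had no reads, and in HttQ89 71, 14 and 6. HttQ89 replicate 1 thus had 15.6% of antisense peaks at 0, close to the 16.2% of other promoter peaks. Of the 456 peaks, 54 were at 0 in that library and in no other, and 355 (77.9%) were above 0 in all 6. The median antisense peak had 75.8, 57.9 and 71.8 normalised reads in HttQ23 and 31.9, 44.0 and 88.7 in HttQ89. Relative to the HttQ23 mean on the log2(value + 1) scale, the HttQ89 libraries had median shifts of −1.01, −0.66 and 0.30 in the order of their replicate numbers. The shift over all peaks was −1.10, −0.65 and 0.33. Immunoprecipitation yield and YY1 occupancy cannot be told apart in a shift of a whole library.

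**Figure D3:**
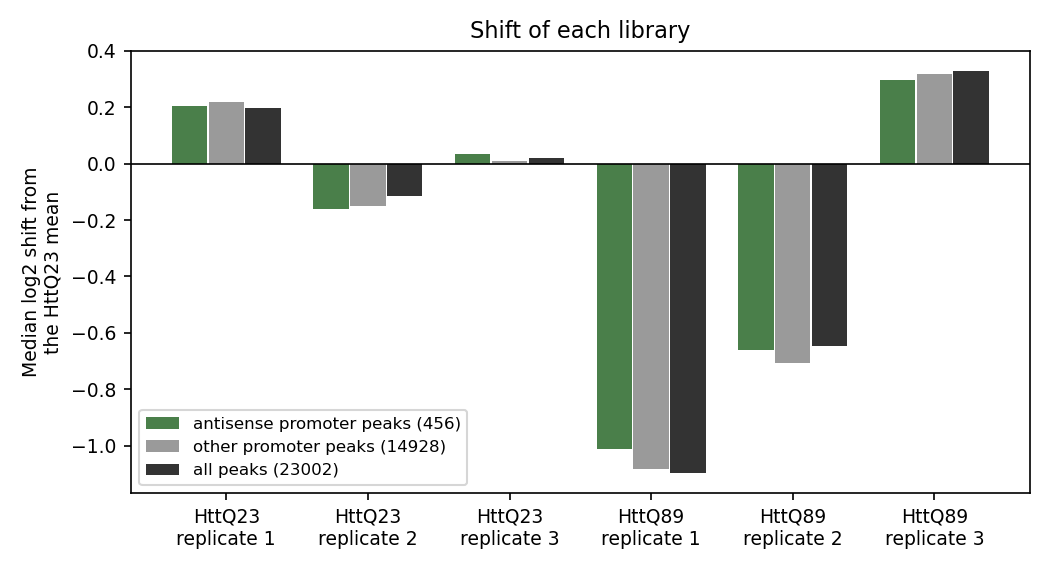
Median log2 shift of each library from the HttQ23 mean for antisense promoter peaks (green), other promoter peaks (grey) and all peaks (black). HttQ89 replicates 1 and 2 lay below 0 and replicate 3 above it in every set of peaks, with antisense peaks at −1.01, −0.66 and 0.30.

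No antisense promoter peak was called different between the groups. With limma over all peaks and Benjamini-Hochberg adjustment at 0.05, 0 of 456 antisense peaks and 0.0% of 23002 peaks were called, and the lowest adjusted p was 0.871. edgeR and DESeq2 on the recovered reads also called 0. At an unadjusted limma p of 0.05, 4 antisense peaks (0.877%) were lower in HttQ89, against 1.5% of all peaks, and 1 (0.219%) was higher, against 0.0956%. With edgeR and with DESeq2 these antisense counts were 0 lower and 1 higher. Over all 23002 peaks there were 45 lower (0.20%) and 21 higher with edgeR, and 62 lower (0.27%) and 15 higher with DESeq2. The replicate numbers paired the libraries by the correlation of their deviations, and with the replicate block 16 antisense peaks (3.51%) were lower, against 3.32% of all peaks, and 4 (0.877%) were higher, against 0.535%. The lowest adjusted p under the block was 0.778. The share of lower antisense peaks was thus under the share of the whole table in the unblocked fit and near it under the block.

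Most antisense peaks had a lower mean log2 value in HttQ89, as most peaks of the table did. The log2 fold change, HttQ89 over HttQ23 of value + 1, was negative at 384 of 456 (84.2%), against 78.0% of all peaks. Its median was −0.52, with quartiles of −0.89 and −0.24, against −0.55 at other promoters and −0.54 over all peaks. Within replicate pairs the median of the antisense peaks was −1.24 for pair 1, −0.50 for pair 2 and 0.21 for pair 3, so the direction turned in the third pair. Only 74 peaks (16.2%) were lower in all 3 pairs and 23 (5.04%) higher in all 3, against 14.7% and 3.64% of all peaks. After centring each library on its own median log2 value, the antisense median was 0.03 and 223 of 456 were negative, and with TMM scaling it was −0.09 and 266 were negative. The directions given for groups of peaks are those of the deposited scaling. Without HttQ89 replicate 3 the antisense median was −0.92 and 115 antisense peaks had an unadjusted p below 0.05 in the lower direction, against 5197 of all peaks. Without HttQ89 replicate 1 it was −0.22. The SD of a single peak on the same scale had a median of 0.51 within HttQ23 and 0.87 within HttQ89.

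At 15 antisense peaks (3.29%) all HttQ89 libraries lay below all HttQ23 libraries, against 4.35% of all peaks. At 5 (1.10%) all lay above, against 0.769% of all peaks. With 3 against 3 libraries the exact two-sided permutation test cannot give a p below 0.1, which is the value at each of these 20. None of them had the motif, and 1 of the 15 and 1 of the 5 had the core. A coding gene started within 1 kb at 10 of the 15 and 4 of the 5. HttQ89 replicate 1 was the lowest library at 10 of the 15.

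ATXN2-AS was the strongest of the 15. Its mean was 530.4 ± 92.0 for HttQ23 against 317 ± 130.3 for HttQ89 (SD, n = 3 libraries each), a log2 fold change of −0.80 ± 0.48 (SE) with an unadjusted limma p of 0.108 and, under the block, 0.0412. HttQ89 replicate 3, at 465, was only just below HttQ23 replicate 2, at 472. NEBL-AS1 (chr10:21173903-21174303), divergent from the gene of the actin-binding muscle protein nebulette, had the lowest unadjusted p of all antisense peaks, 0.026 with limma. It had 155, 149 and 124 reads in the HttQ23 libraries against 36.0, 25.7 and 116 in the HttQ89 libraries, a log2 fold change of −1.55 ± 0.64 (SE), and was low in both HttQ89 replicates 1 and 2. CD63-AS1 (chr12:55728905-55729305), divergent from the gene of an endosomal tetraspanin, had the smallest difference among the 15, with 161, 137 and 117 reads in the HttQ23 libraries against 88.5, 102 and 103 in the HttQ89 libraries. Its 3 HttQ89 libraries were close to each other. With TMM scaling the log2 fold change was −0.03 for CD63-AS1, −0.34 for ATXN2-AS and −1.10 for NEBL-AS1.

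Of the next peaks, 3 were named after developmental or neuronal genes. HOXC13-AS (chr12:53939051-53939451), beside a homeobox gene of hair and nail development, had 185, 104 and 108 reads in the HttQ23 libraries against 19.6, 96.8 and 97.8 in the HttQ89 libraries, so that HttQ89 replicate 1 stood apart while replicates 2 and 3 lay just below the lowest HttQ23 library. SNTG2-AS1 (chr2:950706-951106), divergent from the gene of the neuronal scaffold protein syntrophin gamma 2, had 105, 149 and 120.0 reads in the HttQ23 libraries against 3.09, 85.0 and 102 in the HttQ89 libraries, again with a single very low library. PROX1-AS1 (chr1:213985280-213985680), inside a homeobox gene of lymphatic and neural development, had 25.5, 23.4 and 18.4 reads in the HttQ23 libraries against 15.4, 0 and 8.15 in the HttQ89 libraries. RUNDC3A-AS1 (chr17:44315186-44315586) had 53.0, 91.3 and 63.0 reads in the HttQ23 libraries against 33.0, 51.4 and 43.4 in the HttQ89 libraries, with HttQ89 replicate 2 just below HttQ23 replicate 1. The peak of RNF157-AS1 80 bp upstream of its TSS, named after a ubiquitin ligase gene, had 85.9, 80.7 and 60.4 reads in the HttQ23 libraries against 2.06, 50.4 and 51.6 in the HttQ89 libraries.

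TEDC2-AS1 (chr16:2467663-2468063), named after a gene of a tubulin complex, had 155, 134 and 85.8 reads in the HttQ23 libraries against 21.6, 60.3 and 79.6 in the HttQ89 libraries. TDRD6-AS1, beside a germ cell gene, had 64.7, 57.4 and 28.9 reads in the HttQ23 libraries against 0, 25.7 and 28.1 in the HttQ89 libraries, and the peak of ALDH1A3-AS1 135 bp downstream of its TSS, named after a retinoic acid synthesis gene, had 32.9, 48.9 and 23.6 reads in the HttQ23 libraries against 0, 11.9 and 23.5 in the HttQ89 libraries. HttQ89 replicate 1 was at 0 in both, and their log2 fold changes of −2.40 and −2.35 include that 0 through the pseudocount. With DESeq2 on the recovered reads they were −1.49 and −1.57. At ALDH1A3-AS1, HttQ89 replicate 3 at 23.5 was only just below HttQ23 replicate 3 at 23.6. HAS2-AS1, antisense to a hyaluronan synthase gene, had 23.3, 34.0 and 29.8 reads in the HttQ23 libraries against 5.15, 8.89 and 21.7 in the HttQ89 libraries. HSPA2-AS1, beside a testis-enriched HSP70 gene, had 30.8, 40.4 and 19.3 reads in the HttQ23 libraries against 17.5, 11.9 and 12.7 in the HttQ89 libraries. The MAP3K14-AS1 peak at its TSS, named after a kinase gene of NF-kappaB signalling, had 30.8, 20.2 and 19.3 reads in the HttQ23 libraries against 0, 14.8 and 9.96 in the HttQ89 libraries.

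**Figure D4:**
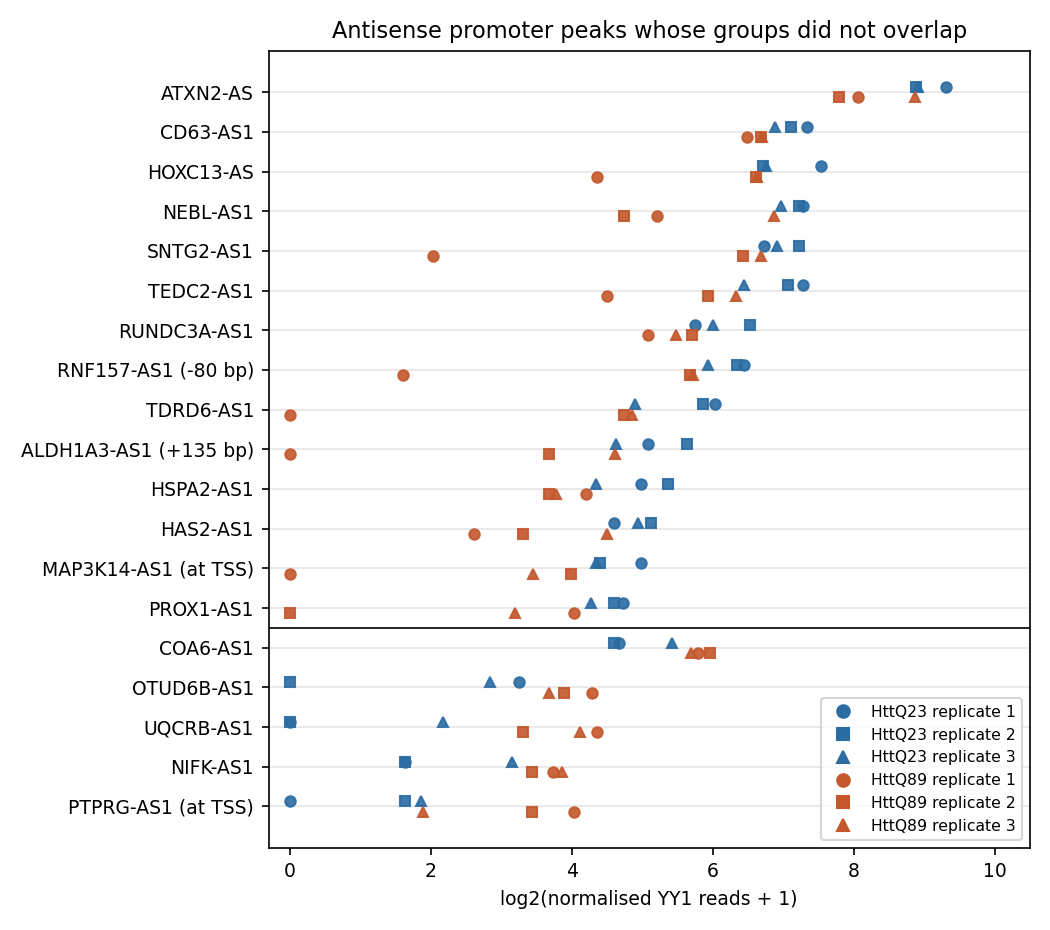
log2(normalised YY1 reads + 1) in each library at 19 antisense promoter peaks whose groups did not overlap, 14 with all HttQ89 libraries lower above the line and 5 with all higher under it, with symbols as in the plot of the strongest peaks. Distances in brackets are from the peak to the TSS, for genes with more than 1 peak; the 14 range in mean from 15.1 to 424 and the 5 from 5.47 to 42.7.

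The 5 peaks higher in HttQ89 were weak. COA6-AS1 (chr1:234373311-234373711), which starts 19 bp from a cytochrome c oxidase assembly gene, was the strongest, with 24.4, 23.4 and 42.0 reads in the HttQ23 libraries against 54.6, 61.3 and 50.7 in the HttQ89 libraries. UQCRB-AS1 (chr8:96235268-96235668), overlapping the start of a respiratory complex III subunit gene, had 0, 0 and 3.50 reads in the HttQ23 libraries against 19.6, 8.89 and 16.3 in the HttQ89 libraries. It was the only antisense peak higher at an unadjusted limma p of 0.05, with a limma p of 0.0291 and, under the block, 0.00526, and it was at 0 in 2 HttQ23 libraries. OTUD6B-AS1, beside a deubiquitinase gene, had 8.49, 0 and 6.13 reads in the HttQ23 libraries against 18.5, 13.8 and 11.8 in the HttQ89 libraries. NIFK-AS1, far upstream of its TSS, had 2.12, 2.12 and 7.88 reads in the HttQ23 libraries against 12.3, 9.88 and 13.6 in the HttQ89 libraries, and the PTPRG-AS1 peak at the TSS had 0, 2.12 and 2.63 reads in the HttQ23 libraries against 15.4, 9.88 and 2.72 in the HttQ89 libraries. At PTPRG-AS1, replicate 3 of both groups held the same number of recovered reads, so only the depth scaling set these libraries apart. TTLL10-AS1 was at 0 in all 3 HttQ23 libraries and had 0, 12.8 and 19.9 in HttQ89, so the groups met at 0 and no fold is given.

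Peaks lower in the limma fit without separating fully were MKX-AS1, REPIN1-AS1 and SLC26A5-AS1, all with an unadjusted p under 0.05. MKX-AS1, beside a homeobox gene of tendon development, had 23.3, 41.4 and 40.3 reads in the HttQ23 libraries against 0, 0 and 38.9 in the HttQ89 libraries. SLC26A5-AS1, divergent from the gene of prestin, the motor protein of outer hair cells, had 123, 136 and 90.2 reads in the HttQ23 libraries against 1.03, 52.4 and 131 in the HttQ89 libraries. REPIN1-AS1 had 75.3, 47.8 and 29.8 reads in the HttQ23 libraries against 0, 12.8 and 31.7 in the HttQ89 libraries. With DESeq2 on the recovered reads the log2 fold change of MKX-AS1 was −1.43, against −3.35 on log2(value + 1). In each, HttQ89 replicate 1 was at or near 0 and HttQ89 replicate 3 lay within or above the range of HttQ23.

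Peaks of developmental transcription factor partners, grouped by the start of the partner's symbol, numbered 31 at 25 genes. The list of symbol starts did not cover other homeobox partners such as PROX1 and MKX. The log2 fold change was negative at 30 of 31 (96.8%), against 84.2% of all antisense peaks and 78.0% of all peaks. Its median was −0.48, against −0.54 over all peaks, and 0 were called. The core ATGGCG was present in 2 of them (6.45%), against 25.2% of all antisense peaks, and the motif in none. HttQ89 replicate 1 was the lowest library at 24 of the 31, against 49.8% of all antisense peaks and 45.3% of all peaks. Within replicate pairs, all 31 were lower in HttQ89 in pair 1, 24 in pair 2 and 10 in pair 3. The share in pair 3 was 32.3%, against 30.5% of all antisense peaks, so the direction did not hold over the pairs. The strongest was IRX4-AS1 (chr5:1882941-1883341), divergent from a homeobox gene of the heart ventricle, with 221, 194 and 184 reads in the HttQ23 libraries against 35.0, 102 and 241 in the HttQ89 libraries. GATA2-AS1, beside the gene of a blood stem cell factor, had 138, 79.7 and 109 reads in the HttQ23 libraries against 75.2, 59.3 and 118 in the HttQ89 libraries, and MEF2C-AS1, beside the gene of a muscle and neuronal factor, had 90.2, 56.3 and 65.7 reads in the HttQ23 libraries against 30.9, 42.5 and 95.0 in the HttQ89 libraries. HttQ89 replicate 3 exceeded at least 1 HttQ23 library in all 3 of these.

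Zinc finger partners held 26 peaks at 23 genes, 19 of them with a negative log2 fold change and a median of −0.54. ZNF606-AS1, the strongest, had 2 matches to the core and 413, 210.3 and 455 reads in the HttQ23 libraries against 371, 172 and 487 in the HttQ89 libraries. ZNF793-AS1 had 3.18, 10.6 and 65.7 reads in the HttQ23 libraries against 80.3, 33.6 and 57.0 in the HttQ89 libraries, a log2 fold change of 1.89 with low values in HttQ23 replicates 1 and 2, and 1.10 with DESeq2 on the recovered reads. Neuronal channel, receptor and synapse partners held 15 peaks with a median of 0.05, of which 7 were negative. Their median level was 29.0, against 65.7 for all antisense peaks, and 0 were called. Only 8 of the 15 (53.3%) were above 0 in all 6 libraries, against 77.9% of all antisense peaks. The group means of these 15 had a median of 33.95 in HttQ23 and 24.01 in HttQ89. Within replicate pairs 1, 2 and 3 the median log2 difference of the class was −1.32, 0.09 and 0.05. DLGAP4-AS1, the strongest, named after a postsynaptic scaffold gene but 14 bp from the TSS of TGIF2, had 216, 207 and 171 reads in the HttQ23 libraries against 79.3, 109.7 and 243 in the HttQ89 libraries. SCN1A-AS1, antisense to a sodium channel gene of epilepsy, had 14.8, 31.9 and 20.1 reads in the HttQ23 libraries against 0, 21.7 and 0 in the HttQ89 libraries and an unadjusted p of 0.0543 with limma and 0.0173 under the block. The list of symbol starts for mitochondrial and translation genes matched NDUFV2-AS1 and NDUFB2-AS1, with log2 fold changes of −0.80 and −0.95. It did not cover other mitochondrial partners such as COA6 and UQCRB, whose antisense peaks had 0.92 and 3.20.

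**Figure D5:**
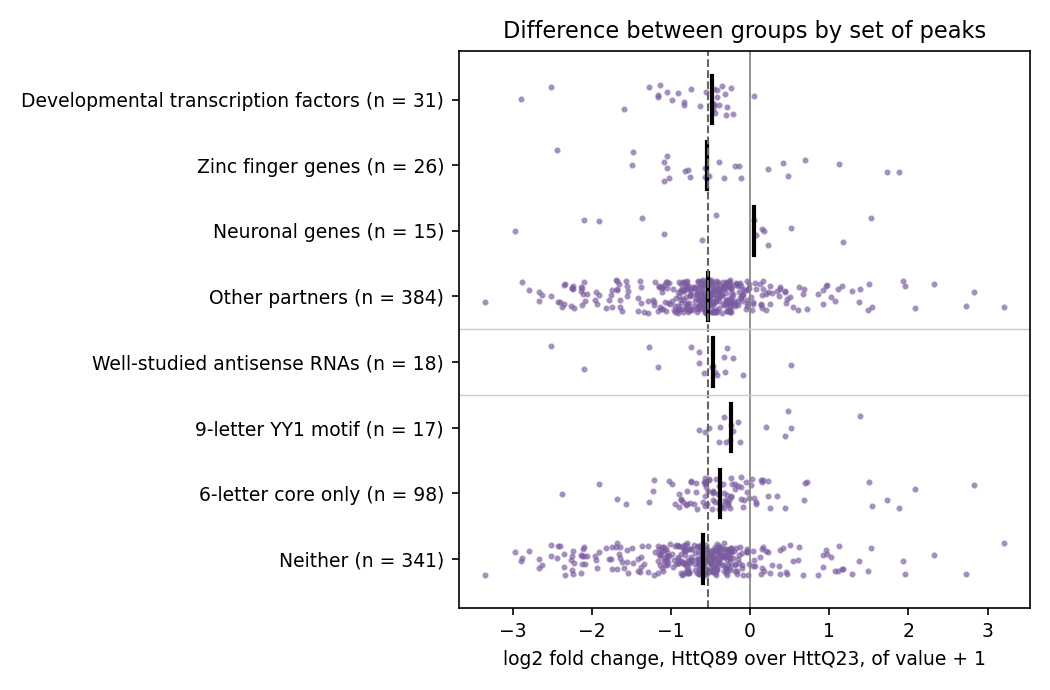
log2 fold change (HttQ89 over HttQ23 of value + 1) of antisense promoter peaks by class of partner gene, for the well-studied antisense RNAs and by motif. Each point is a peak, short black bars are medians, the dashed line is the median of all peaks (−0.54), and medians ran from −0.60 for peaks without the core to 0.05 for neuronal partners.

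The median difference between groups was closer to 0 at peaks with the motif, which was not tested. The median log2 fold change was −0.24 with the motif, −0.38 with the core only and −0.60 with neither. Over all promoter peaks it was −0.27 with the motif and −0.62 without the core, so that contrast was not particular to antisense promoters. The 50 strongest antisense peaks had a median of −0.46. Of the 17 antisense peaks with the motif, 12 were negative and 0 were called.

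Antisense RNAs with a described function were represented by 14 genes and 18 peaks, from a list of 41 names. The log2 fold change was negative at 17 of the 18, with a median of −0.47, and 0 were called. CDKN2B-AS1 (chr9:21994177-21994577), also called ANRIL, an RNA of the cell cycle inhibitor locus that binds Polycomb proteins, had its peak 15 bp from a TSS of CDKN2A and 175, 175 and 160.2 reads in the HttQ23 libraries against 59.7, 97.8 and 214 in the HttQ89 libraries. BDNF-AS (chr11:27506509-27506909), which represses the neurotrophin gene BDNF, starts far from it, with 152828 bp to the nearest BDNF TSS, and its peak lay 60 bp from the TSS of LIN7C, a synaptic scaffold gene. It was the 1 positive peak of the list, with 63.6, 40.4 and 174 reads in the HttQ23 libraries against 129, 90.9 and 114 in the HttQ89 libraries and a log2 fold change of 0.52 ± 0.62 (SE), or 0.26 with DESeq2 on the recovered reads. HttQ23 replicate 3 was the highest of all libraries there and HttQ23 replicate 2 the lowest. HOXA-AS2 had 26.5, 26.6 and 21.0 reads in the HttQ23 libraries against 13.4, 23.7 and 23.5 in the HttQ89 libraries and HOXD-AS2 had 161, 76.5 and 121 reads in the HttQ23 libraries against 72.1, 80.0 and 141 in the HttQ89 libraries. THAP9-AS1 had 148, 132 and 160.2 reads in the HttQ23 libraries against 103, 58.3 and 154 in the HttQ89 libraries and TMPO-AS1, at its TSS, 300.2, 139 and 144 reads in the HttQ23 libraries against 89.6, 82.0 and 212 in the HttQ89 libraries. No peak of this list had groups that did not overlap.

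Antisense genes at loci of neurodegenerative or repeat disorders were ATXN2-AS, ATXN1-AS1, DM1-AS and MAPT-AS1, chosen after their values had been seen. ATXN1-AS1 (chr6:16761551-16761951) had 183, 118 and 173 reads in the HttQ23 libraries against 110.2, 60.3 and 222 in the HttQ89 libraries, with HttQ89 replicate 3 the highest library. DM1-AS (chr19:45770239-45770639), from the myotonic dystrophy locus, had its peak 343 bp upstream of its TSS and 67.9, 68.0 and 92.8 reads in the HttQ23 libraries against 0, 40.5 and 104 in the HttQ89 libraries. MAPT-AS1 (chr17:45895381-45895781) had 70.0, 57.4 and 54.3 reads in the HttQ23 libraries against 0, 33.6 and 84.2 in the HttQ89 libraries. At DM1-AS and MAPT-AS1, HttQ89 replicate 1 was at 0 and replicate 3 was above every HttQ23 library, and their log2 fold changes of −2.22 and −2.09 include that 0 through the pseudocount. With DESeq2 on the recovered reads the log2 fold change of MAPT-AS1 was −0.62. Peaks of the HTT locus are not analysed here.

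More than 1 peak was found at 26 genes, with 3 each at HOXB-AS1, TBX2-AS1, ZNF503-AS2 and KRTAP5-AS1. The strongest peak covered the TSS at 17 of the 26, and it exceeded the weakest by a median of 3.71-fold. TMPO-AS1 had the largest ratio, 15.7, between means of 161 at the TSS and 10.2 at 1433 bp upstream. At CENPN-AS1 the peaks were nearly equal, with means of 140 and 130 at TSSs within a span of 60859 bp, but 1 of them (chr16:81035610-81036010) read 167, 110.5 and 96.3 reads in the HttQ23 libraries against 251, 102 and 111 in the HttQ89 libraries and the other 215, 118 and 151 reads in the HttQ23 libraries against 73.1, 63.2 and 157 in the HttQ89 libraries. The first, 32 bp from the TSS of ATMIN, was highest in HttQ89 replicate 1, the library that was lowest at 227 of the 456 antisense peaks.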

How the data were processed

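YY1 binding was profiled by ChIP-seq in SK-N-MC cells after transfection of Htt with 23 or 89 glutamines, in 3 libraries per group. The 3 input libraries were not used here, and peaks of the HTT locus are not analysed here. Of the 15 peaks with all HttQ89 libraries lower, 1 is counted but not reported here.

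According to the notes the submitters gave on processing, reads of 150 nt were checked with FastQC 0.11.8, trimmed with cutadapt 3.7, aligned to GRCh38.p14 with Bowtie2 2.4.1 and filtered with Sambamba and bedtools 2.29.2. MACS3 3.0.1 was the peak caller and ChIPseeker 1.38.0 the annotator. The sources used here do not say if peaks were called per library or on a pool. Each deposited value is a signal made by the authors with DiffBind, namely reads per peak scaled to sequencing depth. This scaling leaves library-wide differences in place. Values were multiples of a step of 0.876 to 1.06 per library, and 100% gave whole reads within 0.1 read, 927910 to 2344649 per library.

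All rows were kept, zeros included, and log2(value + 1) was tested over all 23002 peaks with limma 3.58.1 (trend, two-sided, R 4.3.3) and Benjamini-Hochberg adjustment at 0.05. Scripts were tested on simulated data. A fold change on this scale is the difference of mean log2 values, so a single library at 0 can make it larger than the fold of the mean reads, while the pseudocount makes folds of low values smaller. Alternatives were edgeR 4.0.16 and DESeq2 1.42.0 on recovered reads, other pseudocounts (0.5 and 5), filters (above 0 in all 6 libraries, mean of at least 20), scalings (median centring, quantile, TMM), no variance trend, the replicate block and leaving out each library. Same-numbered libraries deviated together over peaks (correlations of 0.233, 0.437 and 0.203), so the numbers were taken to pair the libraries, although the labels name no shared day or batch. The replicates are labelled biological, and p-values measure only the spread between these libraries.

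Positions, partners and the nearest protein-coding TSS came from GENCODE on GRCh38, and sequences from the GRCh38 reference. The text names the 10 strongest peaks, peaks whose groups did not overlap, the 5 lowest limma p-values per direction, peaks of a list of 41 well-studied antisense RNAs, the strongest peak of each class and genes with several peaks. Peaks outside this rule (GATA2-AS1, MEF2C-AS1, NDUFB2-AS1, MKLN1-AS, WEE2-AS1, ATXN1-AS1, DM1-AS, SCN1A-AS1, pairs with a partner peak and those near the distance limit) were chosen after their values were seen. The members and all lists were chosen with earlier results of these data known.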

Additional observations from a re-analysis of the deposited data

How the results depend on the processing

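No antisense peak was called at an adjusted p of 0.05 under any of the alternatives run, so the changes concern counts at an unadjusted p of 0.05, medians and separated groups. The number lower in HttQ89, 4 in the limma fit as reported, was 0 with DESeq2 and with edgeR, 1 with TMM and with quantile normalisation, 2 with median centring and with a pseudocount of 0.5, 8 with a mean of at least 20, 11 with peaks above 0 in all 6 libraries and 12 with a pseudocount of 5. In the last 3 settings the share of antisense peaks was 2.10%, 3.10% and 2.63%, against 3.05%, 4.02% and 3.37% of all peaks tested. The number higher, 1 as reported, was 0 with a mean of at least 20, 2 with a pseudocount of 5, 3 without the variance trend, 4 with TMM, 9 with median centring and 13 with quantile normalisation. Over all peaks the split of lower and higher was 345 and 22 as reported, 160 and 80 with TMM, 143 and 171 with median centring and 190 and 199 with quantile normalisation. It was 774 and 33 with a pseudocount of 5 and 307 and 89 without the variance trend. These counts are out of 456 antisense peaks and 23002 peaks in all. With a mean of at least 20 they were 444 and 1 out of 14576 peaks, of which 381 were antisense. The median log2 fold change of antisense peaks was −0.52 as reported, −0.41 with edgeR and with DESeq2, −0.09 with TMM, close to 0 with quantile normalisation and 0.029 with median centring. Of 103 named peaks, 28 changed sign with median centring, 25 with quantile normalisation and 19 with TMM. With DESeq2 on recovered reads 29 of the 103 had a fold more than 1.5 times smaller on the log2 scale than reported and 4 a fold more than 1.5 times larger.

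Peaks with all HttQ89 libraries lower, 15 as reported, numbered 9 with median centring, 10 with TMM and 11 with peaks above 0 in all 6 libraries. Those with all higher, 5 as reported, numbered 1 with a mean of at least 20, 2 with peaks above 0 in all 6 libraries, 10 with TMM, 13 with quantile normalisation and 16 with median centring. The same counts over all peaks are not given for these settings, so these numbers are not read as particular to antisense peaks.

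With the replicate block, which pairs libraries of the same number, 16 antisense peaks had an unadjusted p under 0.05 in the lower direction and 4 in the higher one, and the block changed no call at the adjusted threshold.

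Leaving out 1 library at a time gave 0 to 115 lower peaks, 0 to 5 higher peaks and a median of −0.92 to −0.22 (−0.93 to −0.20 over all peaks). The count of lower peaks was 0 when HttQ23 replicate 1 or 3 was left out, against 0.20% and 0.26% of all peaks. It was 17 (3.73%, against 2.80% of all peaks) without HttQ89 replicate 2. Without HttQ89 replicate 3 it was 115 (25.2%, against 22.6%). The 5 higher peaks came without HttQ23 replicate 3, where 160 of all peaks were higher. Separated groups numbered 19 to 215 lower and 5 to 27 higher, with 2 libraries left in a group and so easier to separate. Counts of separated groups over all peaks are not given here, so these ranges say nothing particular to antisense peaks.

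Weak peaks limit these comparisons, since 101 antisense peaks were at 0 in at least 1 library. Why the counts move between settings was not tested.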
